A study of Mus musculus with 7 samples.

Results

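The 4 entries of miR-126 in a count table of mouse colorectum are described here: mmu-miR-126a-3p, mmu-miR-126a-5p, mmu-miR-126b-3p and mmu-miR-126b-5p, written below without the species prefix. They were chosen by name, as the mature arms of 2 hairpins that overlap on opposite strands within the gene Egfl7, and they are 4 of 1915 entries; all 4 passed the filter on low counts, which kept 878 for testing. Small RNA was sequenced from colorectum of wild type C57BL/6 female mice, 7 weeks old when treatment began, in 2 groups. The 3 CRC mice, M4, M5 and M6, had received azoxymethane, a colon carcinogen, at 10 mg/kg, and 5 days later dextran sodium sulfate at 2.5% in the drinking water for 7 days. The labels then give 14 days of plain water, 3 repeats of the cycle, and stage T1 at day 17 after induction; the event that starts this count could not be settled. The 3 healthy mice, M1, M2 and M3, stand for the negative control, which was injected with 0.9% NaCl. No group had the carcinogen or the sulfate alone, so carcinogen, colon injury and tumour cannot be told apart. Mouse M1 has 2 labelled libraries and 1 column, taken as 1 replicate.

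MicroRNAs (miRNAs) are short RNAs that repress messenger RNAs through their seed, bases 2 to 8 of the mature strand. miR-126 lies in an intron of Egfl7, a gene of blood vessel endothelium, and is known as a typical miRNA of endothelial cells, with some expression in blood stem cells and platelets. Its 3p arm is known to repress Spred1 and Pik3r2, inhibitors of growth factor signalling, and so to sustain vessel growth, while the 5p arm is known in mouse endothelium to repress Dlk1. The table holds no other miRNA of comparable endothelial specificity, so the label endothelial could not be checked here. In whole tissue, fewer cells of a type and less RNA per cell cannot be told apart.

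The mature sequences, from the deposited table, are shown 5′ to 3′ with the seed in capitals, because the seed sets the targets and because the entries mirror each other.
miR-126a-3p: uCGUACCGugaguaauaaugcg
miR-126a-5p: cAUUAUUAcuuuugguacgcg
miR-126b-3p: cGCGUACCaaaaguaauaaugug
miR-126b-5p: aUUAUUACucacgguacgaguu
The 4 seeds differ, but they overlap with a shift between the hairpins: AUUAUUA and UUAUUAC for the 5p arms, CGUACCG and GCGUACC for the 3p arms. Differing seeds therefore do not make the target sets of the entries unrelated, and targets were not compared here. Of the other entries of the table, 0 share any of the 4 seeds, so the miR-126 arms form no seed family with another miRNA here. The letters of 3 of the 4 entries were the same in the RefSeq table of mature miRNAs (GRCm38.p6). For miR-126a-5p no such match by name and letters was found, though its sequence lies whole in the RefSeq mir-126a hairpin below. GC content was 45.5% for miR-126a-3p and 36.4% to 39.1% for the other entries.

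The hairpins, from RefSeq on GRCm38.p6 with the mature arms in capitals, show how the entries lie.
mir-126a: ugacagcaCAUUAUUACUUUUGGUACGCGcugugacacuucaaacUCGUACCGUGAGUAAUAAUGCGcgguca
mir-126b: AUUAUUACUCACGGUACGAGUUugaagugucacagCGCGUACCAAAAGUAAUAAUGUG
Mir126a lies at chr2:26591357-26591429 on the plus strand and Mir126b at chr2:26591363-26591420 on the minus strand, so all 58 bases of the shorter hairpin lie within the other. On the plus strand miR-126a-5p takes chr2:26591365-26591385 and miR-126a-3p chr2:26591402-26591423; on the minus strand miR-126b-3p takes chr2:26591363-26591385 and miR-126b-5p chr2:26591399-26591420. Egfl7 runs on the plus strand from 26580014 to 26593120 in GENCODE M21. Of its transcripts, 9 span the mir-126a hairpin, and all 7 protein-coding ones among them carry it in an intron; 1 transcript of the retained-intron type has an exon over it. Mir126b is thus antisense to its host gene.

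**Figure D1:**
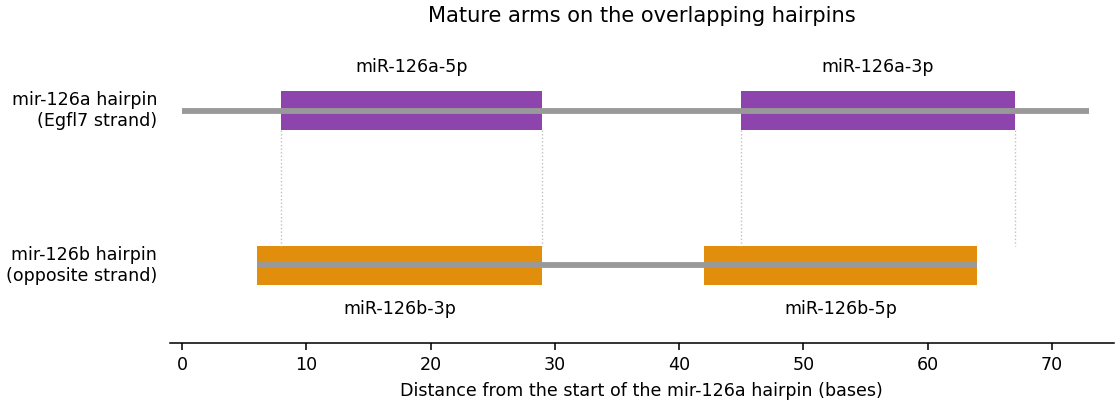
Positions of the mature arms (coloured bars) on the overlapping hairpins (grey lines), as distance in bases from the start of the mir-126a hairpin, with the Egfl7 strand above and the opposite strand below; dotted lines carry the ends of the mir-126a arms down. The whole of miR-126a-5p lies within the mir-126b hairpin, while 3 bases of miR-126a-3p lie outside it.

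Opposite-strand entries shared letters to different extents. Against the reverse complement of miR-126b-3p, written second with the shared run in capitals, all 21 bases of miR-126a-5p matched.
miR-126a-5p: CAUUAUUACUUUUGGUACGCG
miR-126b-3p, reverse complement: caCAUUAUUACUUUUGGUACGCG
Between miR-126a-3p and the reverse complement of miR-126b-5p the run was 19 bases.
miR-126a-3p: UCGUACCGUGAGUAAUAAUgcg
miR-126b-5p, reverse complement: aacUCGUACCGUGAGUAAUAAU
The last 3 bases of miR-126a-3p reach beyond the mir-126b hairpin.

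The 6 profiles were not evenly spread. They lay in neighbouring pairs, M5 with M6, M4 with M3 and M1 with M2, with correlations of log2 levels across 279 miRNAs of 0.984, 0.966 and 0.992, against at most 0.908 between mice of different pairs; miRNAs are not independent replicates. The CRC mouse M4 and the healthy mouse M3 were thus closest to each other, although their labels differ. The labels give no batch. Totals ran from 3206127 to 6601899 reads in CRC mice and from 8222508 to 15280434 reads in healthy mice.

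The entries that were reverse complements over a whole arm had nearly equal reads. miR-126b-3p had 8253, 16117 and 11353 reads in the CRC mice M4, M5 and M6, against 10647, 9950 and 19170 reads in the healthy mice M1, M2 and M3. miR-126a-5p, on the other strand, had 8181, 16111 and 11304 reads in M4, M5 and M6, against 10527, 9816 and 19506 reads in M1, M2 and M3. The 2 entries were thus level in every mouse. Of their summed reads miR-126a-5p took 49.8% in M4, 49.99% in M5 and 49.9% in M6, against 49.7% in M1, 49.7% in M2 and 50.4% in M3. The exact 95% binomial interval, which covers counting error only, held an even split in 6 of 6 mice. The log2 ratio of miR-126b-3p to miR-126a-5p was 0.0065 ± 0.0061 in CRC mice and 0.0036 ± 0.025 in healthy mice (SD, n = 3 each). The rule by which reads were assigned to a strand was not given in the sources used here, and whether reads of 1 arm were divided between both entries was not tested. Because the 2 entries were level in every mouse, a count over the 4 entries holds nearly the same values in duplicate.

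The other opposite-strand pair was far from level. miR-126b-5p had 598, 1173 and 588 reads in M4, M5 and M6, against 1549, 976 and 966 reads in M1, M2 and M3. Of the summed reads of miR-126b-5p and miR-126a-3p, it took 0.835%, 2.13% and 1.76% in M4, M5 and M6, against 1.73%, 0.876% and 1.06% in M1, M2 and M3. The groups overlapped, and the log2 ratio of miR-126b-5p to miR-126a-3p differed by 0.32 between CRC and healthy mice (exact permutation test, two-sided, p = 0.7; 0.8 adjusted over 8 ratios). With 3 mice against 3 the smallest p of this test is 0.1.

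**Figure D2:**
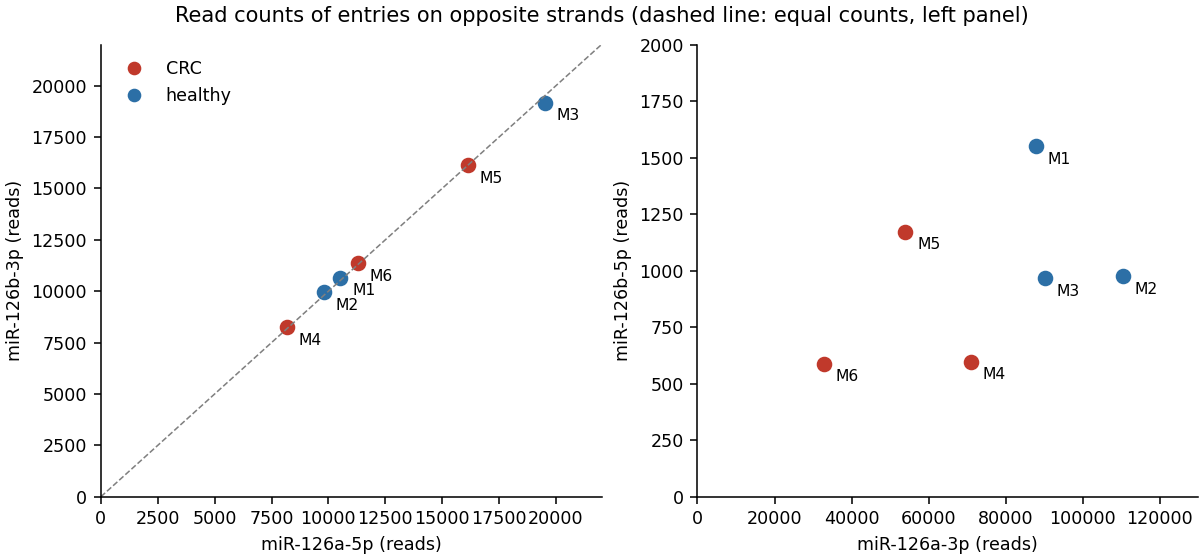
Reads of opposite-strand entries plotted against each other, 1 point per mouse, CRC in red and healthy in blue, on linear axes. On the left every mouse lies on the dashed line of equal counts; on the right miR-126b-5p stays between 588 and 1549 reads while miR-126a-3p runs from 32862 to 110395.

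Level counts were common in the table among pairs of entries with reverse-complement runs, which were found by sequence alone. Of 37 pairs of entries with 19 or more reverse-complement bases in 1 run, 16 had summed reads of 1000 or more, and 10 of those 16 lay within 5 percentage points of even in all 6 mice. Where both entries lay in a RefSeq hairpin, 10 of the 12 pairs with the more abundant entry held whole by the hairpin of the other were level, and 0 of the 2 not held whole, 1 of them miR-126a-3p with miR-126b-5p. Among the 12, miR-374c-3p with miR-374c-5p was not level (97.8% to 98.9%), and these are named as arms of 1 hairpin. Also not level was miR-3065-3p with miR-338-5p (40.9% to 58.4%), at 1207 summed reads. Among the most abundant other pairs, miR-3074-5p took 49.96% to 50.3% of the reads it formed with miR-24-3p, and miR-142b 50.3% to 51.7% with miR-142a-3p. In contrast miR-1a-3p took 66.4% to 67.6% with miR-1b-5p.

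miR-126a-3p, the guide strand known for endothelial signalling, was by far the most abundant arm. It had 71039, 53993 and 32862 reads in the CRC mice M4, M5 and M6, against 87857, 110395 and 90129 reads in the healthy mice M1, M2 and M3. That is 1.08%, 1.51% and 1.02% of all miRNA reads in M4, M5 and M6, against 0.708%, 0.722% and 1.096% in M1, M2 and M3, and a place between 16 and 25 among all entries. As a share of reads it was lowest in M1 and M2, and M3 lay among the CRC mice. Shares depend on what else fills a library: the smooth muscle list given below took 6.53% to 20.7% of the reads in CRC mice and 20.998% to 47.9% in healthy mice.

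Levels are therefore given as CPM, reads relative to library size, with library sizes scaled by TMM, a method that sets most miRNAs level between libraries. On that scale mmu-miR-126a-3p had 11343, 9769 and 6982 CPM in M4, M5 and M6, against 9822, 12412 and 9922 CPM in M1, M2 and M3. The groups overlapped, with the highest value in the healthy mouse M2 and the lowest in the CRC mouse M6. Means were 9365 ± 2208 CPM in CRC mice and 10719 ± 1468 CPM in healthy mice (SD, n = 3 each). The log2 fold change of CRC over healthy was -0.19 (SE 0.34, 95% interval -0.96 to 0.57, adjusted p = 0.762 in edgeR's quasi-likelihood test), a difference smaller than the spread between mice. Its sign depended on the scaling: with total counts alone it was 0.52, where the median of all tested miRNAs was 0.62, against a median of -0.03 with TMM. Without M2 it was 0.05.

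Between mice, miR-126a-3p was among the steadier abundant miRNAs on the TMM scale. Its coefficient of variation over the 6 mice was 18.3%, and 6 of the 87 miRNAs with a mean of at least 1000 CPM had a lower one; their median was 41.1%. With total counts alone its coefficient was 29.0% and 45 of the 87 had a lower one, so this place rests on the scaling. By mean level it ranked 17 of 878 tested miRNAs, with 10042 ± 1834 CPM (SD, n = 6 mice of both groups). Next above it were miR-215-5p, an enterocyte miRNA, at 12851 ± 9938 CPM and miR-103-3p at 10638 ± 4091 CPM; next below were miR-30c-5p at 9984 ± 4110 CPM and miR-3074-5p at 9925 ± 4439 CPM (SD, n = 6 each). These neighbours did not differ from it beyond their spread.

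miR-126a-5p, the passenger arm known from endothelial repair, varied more between mice, relative to its mean, than the 3p arm: its coefficient of variation over the 6 mice was 40.9%, against 18.3% for miR-126a-3p. The entry mmu-miR-126a-5p had 1306, 2915 and 2402 CPM in the CRC mice M4, M5 and M6, against 1177, 1104 and 2147 CPM in the healthy mice M1, M2 and M3. M5, M6 and the healthy M3 were high, and M4 lay with M1 and M2. Means were 2208 ± 822 CPM in CRC mice and 1476 ± 583 CPM in healthy mice (SD, n = 3 each). The log2 fold change was 0.58 (SE 0.45, 95% interval -0.42 to 1.58, adjusted p = 0.460, edgeR); with total counts alone it was 1.27 (adjusted p = 0.247). Between the neighbouring profiles, M4 had 0.608 times the level of M3.

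Its mirror entry, mmu-miR-126b-3p, gave almost the same values: 1318, 2916 and 2412 CPM in M4, M5 and M6, against 1190, 1119 and 2110 CPM in M1, M2 and M3. Its log2 fold change was 0.59 (SE 0.44, 95% interval -0.40 to 1.58, adjusted p = 0.444, edgeR). No function is assigned to it here.

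The arm antisense to miR-126a-3p, mmu-miR-126b-5p, was the least abundant, with 95.5, 212 and 125 CPM in M4, M5 and M6, against 173, 110 and 106 CPM in M1, M2 and M3. Each group had 1 high mouse, M5 in CRC and M1 in healthy. The log2 fold change was 0.15 (SE 0.45, 95% interval -0.86 to 1.16, adjusted p = 0.871, edgeR), and it was 0.98 with total counts alone, -0.21 without M5 and -0.07 without M3.

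**Figure D3:**
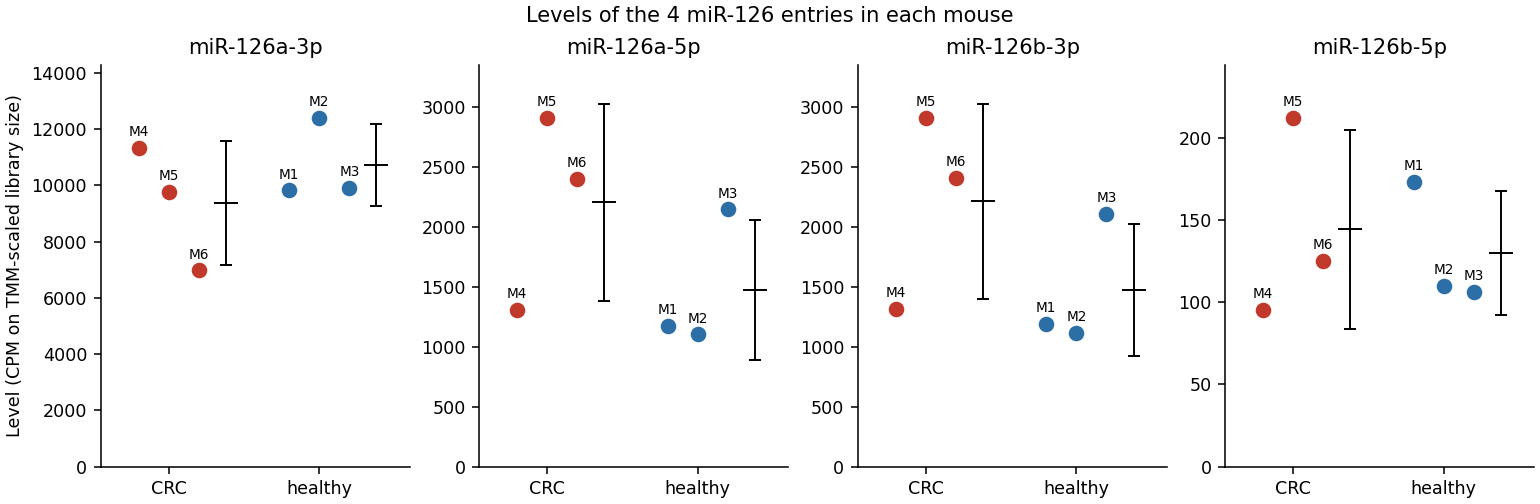
Levels of the 4 entries in each mouse (y axis: CPM on TMM-scaled library sizes, starting at 0), CRC mice left in red and healthy mice right in blue; black lines give the mean ± SD of 3 mice. The groups overlap in all 4 panels, and M4 lies below M5 and M6 for miR-126a-5p, with M3 above M1 and M2.

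In all, 0 of the 4 entries passed edgeR's test at an adjusted p of 0.05, against 20 of 878 tested miRNAs (2.28%). That background depended on single mice: 237 miRNAs passed without M4 (19.9%), 63 without M3 (5.9%), 4 without M2 (0.362%) and 0 without M1, M5 or M6, and in each of these fits 0 of the 4 entries passed. At an unadjusted p under 0.05 the entries again gave 0, against 23.2% of all tested miRNAs, and DESeq2, which called 12.6% of all, and limma-voom, which called 0%, called 0 of them. Groups did not overlap for 0 of the 4, against 26.5% of all tested miRNAs. In order of level, miR-126a-3p stood above miR-126a-5p with miR-126b-3p, and these above miR-126b-5p, in 6 of 6 mice; the middle pair did not differ beyond its spread.

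M4 and M3 carried opposite labels and neighbouring profiles, and the values differ without them. With both left out, so that M5 and M6 stood against M1 and M2, the log2 fold change in edgeR was -0.71 for miR-126a-3p (SE 0.24), 0.93 for miR-126a-5p (SE 0.23) and 0.92 for its mirror entry (SE 0.23). These mice were chosen for their measured profiles, and what remains is a pair of close profiles in each group. There 53.2% of 1082 tested miRNAs were called, among them miR-126a-3p, miR-126a-5p and miR-126b-3p but not miR-126b-5p. The fit is therefore a description and no test of miR-126. Between the pair left out the signs were opposite: M4 minus M3 was 0.19 log2 units for miR-126a-3p and -0.72 for miR-126a-5p.

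The balance of the mir-126a arms, which is free of the scaling between libraries, varied between mice. miR-126a-5p made up 10.3%, 23.0% and 25.6% of the reads of both arms in the CRC mice M4, M5 and M6, against 10.7%, 8.17% and 17.8% in the healthy mice M1, M2 and M3. M4 was as low as M1, and M3 lay between them and M5. Counting the reads of miR-126b-3p with the 5p arm raised these shares to 18.8%, 37.4% and 40.8% in M4, M5 and M6, against 19.4%, 15.2% and 30.0% in M1, M2 and M3, in the same order. The 3p arm kept the majority in 6 of 6 mice either way.

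Arm ratios were tested over 234 hairpins whose arms each averaged at least 10 reads. The log2 ratio of 5p to 3p was -2.13 ± 0.86 in CRC mice and -2.92 ± 0.65 in healthy mice for mir-126a (SD, n = 3 each). The difference was 0.79 (SE 0.57, 95% interval -0.49 to 2.06, adjusted p = 0.546, limma). For mir-126b the ratio was -3.95 ± 0.28 in CRC mice and -3.48 ± 0.77 in healthy mice (SD, n = 3 each), a difference of -0.47 (SE 0.52, 95% interval -1.62 to 0.69, adjusted p = 0.658, limma). Its 3p arm is the entry level with miR-126a-5p, so both ratios rest in part on nearly the same counts. Thus 0 of the 2 hairpins passed, against 1 of 234 (0.427%; 5% without M4, 4.31% without M3 and 0 without any other single mouse), and 0 were at an unadjusted p under 0.05, against 12.8%. The ratio of mir-126a varied about as much as that of the middle hairpin: its SD over the 6 mice was 0.81, against a median of 0.80, and 115 of the 234 hairpins had a larger one. As a description only, the difference without M3 and M4 was 1.63 for mir-126a and -0.96 for mir-126b. In that fit 39.6% of hairpins passed, mir-126a and mir-126b among them.

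**Figure D4:**
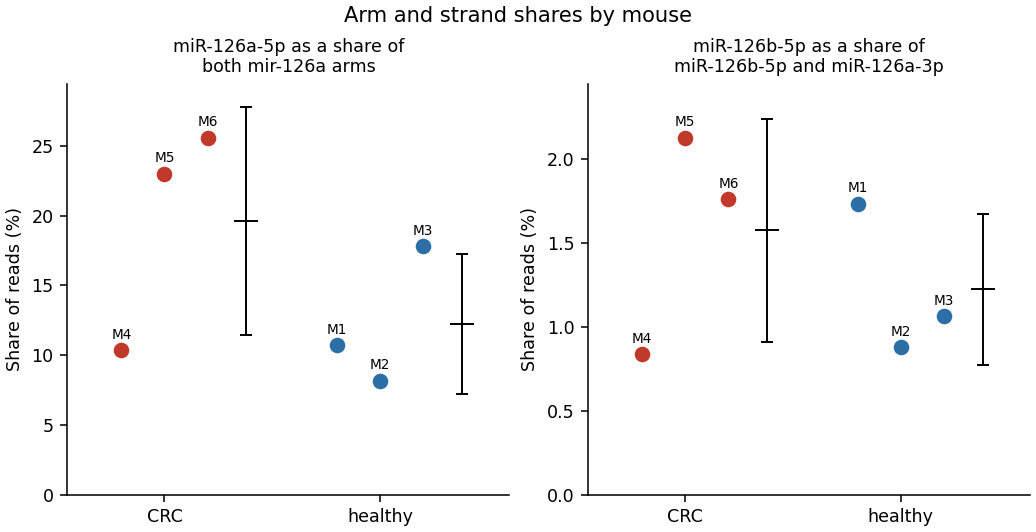
Share of miR-126a-5p in the reads of both mir-126a arms (left) and share of miR-126b-5p in the reads of miR-126b-5p and miR-126a-3p (right), in percent from 0, for each CRC mouse (red) and healthy mouse (blue); black lines give the mean ± SD of 3 mice. M5 and M6 are highest on the left at 23.0% and 25.6%, and M4 at 10.3% lies with M1 and M2.

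Set against miRNAs of other cell types, miR-126a-3p could be read within each library. Relative to the summed reads of 9 epithelial miRNAs (among them miR-192-5p, miR-200a-3p, miR-194-5p and miR-200b-3p, the most abundant), its log2 ratio was -3.72 ± 0.48 in CRC mice and -3.99 ± 0.44 in healthy mice (SD, n = 3 each), a difference of 0.27 (exact permutation p = 0.5, adjusted 0.667). The widest gap was to smooth muscle. Relative to 6 muscle miRNAs (led by miR-145a-5p, miR-143-3p, miR-1a-3p and miR-133a-3p), the log2 ratio was -4.26, -2.22 and -2.67 in M4, M5 and M6, against -5.87, -6.05 and -4.26 in M1, M2 and M3, a difference of 2.34 (exact permutation p = 0.2, adjusted 0.533). M4 and M3 had the same ratio, to 0.0035 log2 units, so the groups overlapped only there. All 6 muscle members had negative log2 fold changes, where 426 of 878 tested miRNAs had positive ones. At an unadjusted p under 0.05 were 6 of the 6, against 23.2% of all tested miRNAs, and past edgeR's adjusted threshold 0, against 2.28%, with a median of -2.20 (-1.47 with total counts alone). The list was chosen with earlier results of these data known, so these counts describe it and test nothing.

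Ratios to blood cell miRNAs ranged more widely than those to epithelium. Relative to 6 leukocyte miRNAs (led by miR-142a-3p, miR-223-3p, miR-150-5p and miR-142a-5p), the log2 ratio was 0.15 ± 0.40 in CRC mice and 0.73 ± 1.25 in healthy mice (SD, n = 3 each; exact permutation p = 0.5, adjusted 0.667), with M3 lowest of all at -0.68. The entry miR-142b, level with miR-142a-3p as told above, is not in this list. A ratio that counts it would be lower and was not calculated. Relative to 5 red blood cell miRNAs (led by miR-451a, miR-144-3p, miR-144-5p and miR-486b-5p), it was 3.20 ± 1.17 in CRC mice and 4.72 ± 0.64 in healthy mice (SD, n = 3 each; exact permutation p = 0.2, adjusted 0.533). M5 and M6 were low there, and M4, at 4.53, lay among the healthy mice. Relative to 6 fibroblast miRNAs, led by miR-214-3p, miR-199a-3p (whose mature sequence is also that of miR-199b-3p), miR-199a-5p and miR-199b-5p, the difference was 0.47 (exact permutation p = 0.2, adjusted 0.533).

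**Figure D5:**
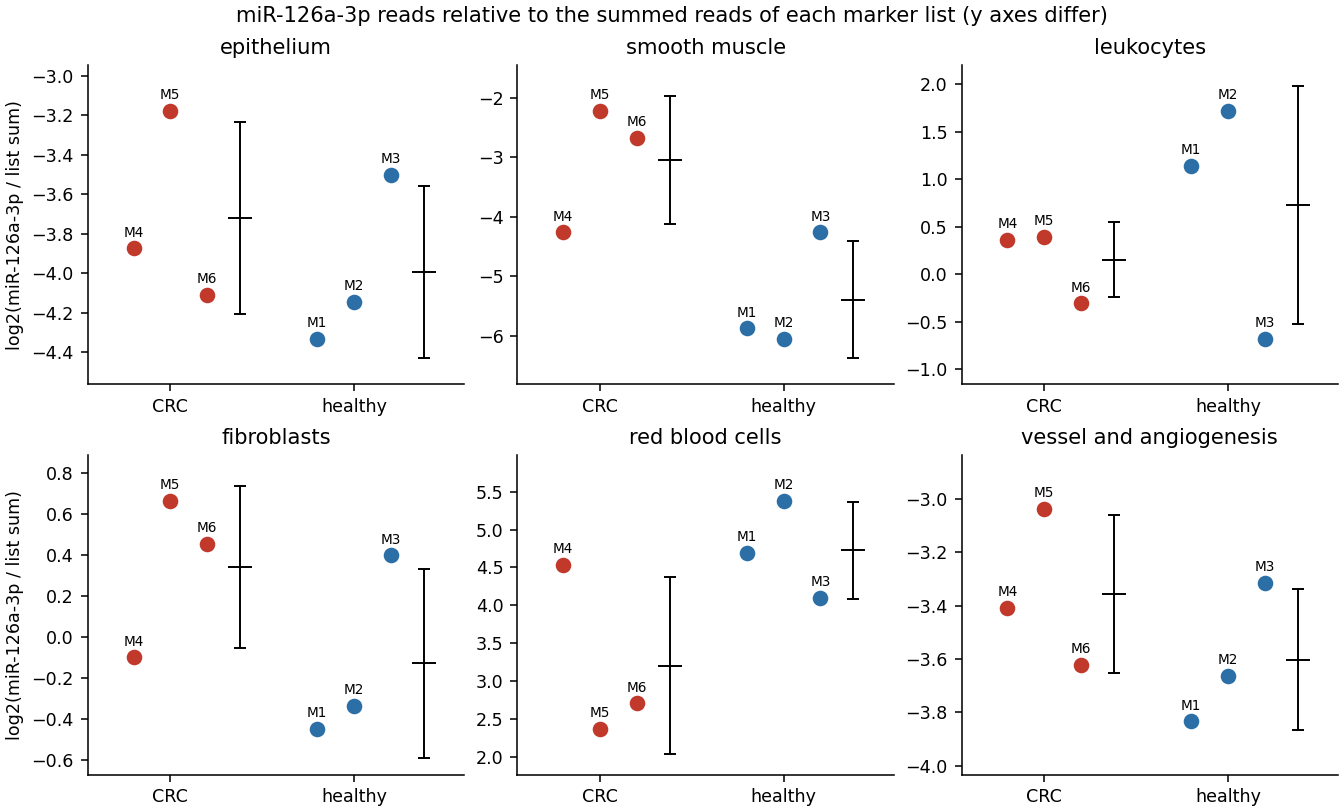
Log2 ratio of miR-126a-3p reads to the summed reads of each marker list, by mouse, CRC left in red and healthy right in blue; black lines give the mean ± SD of 3 mice, and the y axes differ between panels. Against smooth muscle M5 and M6 are highest at -2.22 and -2.67 and M1 and M2 lowest, with M3 and M4 level between them.

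Other miRNAs described in vessels and angiogenesis were listed as well. Of 23 listed, such as the miR-17-92 and miR-23/27/24 members and miR-221 and miR-222, 0 rose and 0 fell in edgeR's test (2.28% of all tested miRNAs passed), 3 were at an unadjusted p under 0.05 (23.2% of all tested), and 10 had positive values (426 of 878 tested). These 3, named after their values were seen, were miR-100-5p (log2 fold change -1.80), miR-503-5p (-1.40) and miR-139-5p (-1.18), all lower in CRC mice. Over the 23 listed, the median log2 fold change was -0.46, against -0.03 over all tested miRNAs (0.37 against 0.62 with total counts alone). The most abundant were miR-23b-3p (log2 fold change -0.51, SE 0.45), miR-19b-3p (-0.46, SE 0.36), miR-23a-3p (-0.78, SE 0.41) and miR-24-3p (-0.64, SE 0.47), which shares reverse-complement bases with miR-3074-5p as told above. Most of these miRNAs are known from several cell types, so the list is no measure of endothelium. The log2 ratio of miR-126a-3p to their sum was -3.36 ± 0.30 in CRC mice and -3.60 ± 0.26 in healthy mice (SD, n = 3 each; exact permutation p = 0.4, adjusted 0.667).

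In the other lists, too, 0 members passed the test. The medians of the log2 fold change were -0.49 for 9 epithelial, 0.02 for 6 leukocyte, 1.45 for 5 red blood cell, -0.60 for 6 fibroblast and -0.70 for 6 nerve miRNAs (led by miR-218-5p, miR-128-3p, miR-124-3p and miR-9-5p), and at an unadjusted p under 0.05 were 0, 0, 2, 1 and 1 of them, against 23.2% of all tested miRNAs. The liver miRNA miR-122-5p, listed as a sign of foreign tissue, had 4, 16 and 6 reads in M4, M5 and M6, against 17, 15 and 0 in M1, M2 and M3.

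Among 275 other miRNAs with a mean of at least 50 CPM, the pattern most like that of miR-126a-3p over the 6 profiles, by Pearson's r of log2 CPM, was that of miR-24-2-5p (r = 0.949). It was followed by miR-218-5p (0.930), miR-3074-2-3p (0.927), miR-214-5p (0.918) and let-7j (0.868). miR-24-2-5p and miR-3074-2-3p are themselves opposite-strand entries with level counts, so they are 1 pattern. The least alike were miR-3470b (-0.903), miR-5131 (-0.863) and miR-301a-3p (-0.859). miR-24-2-5p had 319, 261 and 182 CPM in M4, M5 and M6, against 223, 329 and 255 CPM in M1, M2 and M3, the CRC mouse M6 again lowest and the healthy mouse M2 highest. These are descriptions over 6 profiles that fall in pairs, on the TMM scale alone. The order of likeness with total counts was not calculated.

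The 5p arm had other company, chosen after its values were seen. The closest to miR-126a-5p was miR-144-3p, a red blood cell miRNA (r = 0.991), with 26.7, 200 and 122 CPM in M4, M5 and M6, against 18.2, 10.6 and 81.6 CPM in M1, M2 and M3. miR-19a-3p (0.953), miR-5121 (0.948), miR-106b-5p (0.926) and miR-451a (0.917) came next, and miR-103-3p (-0.996) was the farthest. These r, too, hold for the TMM scale alone. With total counts the coefficient of variation was 16.5% for miR-103-3p and 71.7% for miR-126a-5p, against 38.5% and 40.9% with TMM. The red blood cell list summed to 489, 1897 and 1072 CPM in M4, M5 and M6, against 379, 299 and 580 CPM in M1, M2 and M3, so it was highest in M5 and M6, as was miR-126a-5p. From high to low, both ran in the order M5, M6, M3, M4, M1 and M2. In distance, M3 lay near M4 in this sum but near M6 in miR-126a-5p. Most of the sum was miR-451a, named above for its likeness, at 439, 1641 and 895 CPM in M4, M5 and M6. In M1, M2 and M3 miR-451a had 337, 270 and 478 CPM. The shared order is therefore no separate result. Of the 5 list members 4 had positive log2 fold changes, and miR-486b-5p had -0.51. The part of red blood cells in the spread of miR-126a-5p was not tested. Across the 6 profiles, on the TMM scale, miR-126a-5p and miR-126a-3p had r = -0.637 with each other, though both come from 1 hairpin. As shares of all miRNA reads, both arms were highest in M5 and lowest in M1 and M2. miR-126a-3p took 1.51% in M5, 0.708% in M1 and 0.722% in M2. miR-126a-5p took 0.452%, 0.0848% and 0.0642% in the same mice. The negative r is thus tied to the TMM scale, and r on total counts was not calculated. Between miR-126a-5p and miR-126b-3p r was 0.9998.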

How the data were processed

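Libraries were single-end and read on Proton sequencers, per the labels' protocols. The submitters' processing notes name BWA and the build mm10 (GRCm38). The deposited values are whole-number read counts, not normalized, for 1915 mature miRNA entries in 6 columns; the BWA version, the counting rule and the strand handling were not given in the sources used here. Groups came from the labels; column M1 was 1 healthy replicate.

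All entries were fitted with edgeR 4.0.16 in R 4.3.3 (TMM, filterByExpr, robust glmQLFit, glmQLFTest, Benjamini-Hochberg at 0.05; 878 tested). SE is the log2 fold change over the root of F. Arm ratios of 5p to 3p (0.5 added) used limma 3.58.1 with trend and robust settings; single ratios used exact permutation tests, two-sided. DESeq2 1.42.0, limma-voom, other scalings and filters, GC trend removal (loess, span 0.75), summed opposite-strand entries and leaving out mice were alternatives. On simulated data for CRC against healthy, with 878 miRNAs of which 200 changed, edgeR recovered 6.12% of 2-fold, 68% of 4-fold and 97.8% of 8-fold changes (3 of its 135 calls were false). In 238 simulated hairpins limma called 82.5% of those shifted 8-fold. Every miRNA was drawn separately, without the neighbouring pairs of profiles seen here, so these rates need not hold for the real data.

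Named were the 4 entries, neighbours in level, the 5 most and 3 least alike miRNAs, the most abundant opposite-strand pairs and at most 4 miRNAs from every list, by abundance; others were chosen after their values were seen. Members and lists were chosen with earlier results of these data known. Counts of 0 allow up to 0.936 CPM of the total in M6 and 0.196 in M2, counting error only.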

Additional observations from a re-analysis of the deposited data

How the results depend on the processing

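No entry of miR-126 passed the test under any scaling, filter or tool run on all 6 mice, nor when 1 mouse was left out. Without M3 and M4, mice chosen for their profiles, so that the fit describes and tests nothing, the log2 fold changes were -0.71 for miR-126a-3p, 0.93 for miR-126a-5p, 0.92 for miR-126b-3p and -0.045 for miR-126b-5p, and the arm differences 1.63 for mir-126a and -0.96 for mir-126b. miR-126a-3p changed sign with total counts alone (0.52), with a minimum of 50 CPM (0.092) and with the GC trend removed (0.085); it ran from -0.32 to 0.048 (without M2) when 1 mouse was left out. miR-126b-5p ran from -0.21 to 0.49 with 1 mouse left out. The sum of miR-126b-5p and miR-126a-3p gave -0.18, against -0.19 for miR-126a-3p alone. miR-126b-5p made up 0.835% to 2.13% of those summed reads, so that value is mostly that of miR-126a-3p. The log2 ratio of miR-126b-3p to miR-126a-5p, at 0.0029, was -0.015 without M3 and M4 and ran from -0.011 to 0.011. With means of log2 counts the ratio to the vessel list differed by -0.0050. For these changes of sign the cause was not tested. Over all miRNAs 20 calls became 43 with total counts alone, 64 without a filter, 0 at a minimum of 50 CPM (50 at an unadjusted p under 0.05), 111 in DESeq2, 0 in limma-voom (216 at an unadjusted p under 0.05), 576 without M3 and M4, and 0 to 237 with 1 mouse left out (237 without M4, 63 without M3, 4 without M2, 0 without M1, M5 or M6). No paired analysis was possible because M1 to M6 are different mice and the labels tie no mouse of 1 group to a mouse, litter or batch of the other. The scarcest entry, miR-126b-5p, had at least 588 reads in each mouse.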
